A study of Mus musculus with 11 samples.

Results

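The protein kinase C (PKC) genes described here belong to the classes that respond to diacylglycerol: Prkca and Prkcb of the conventional (cPKC) class, and Prkcd, Prkce, Prkch and Prkcq of the calcium-independent nPKC class. They were taken by symbol from a table of 16228 genes, in which all 6 had a row, and all 6 were among the 14330 genes tested. The samples were 11 total RNA libraries of mouse cerebral cortex, taken by tissue punch at postnatal day 30, called biological replicates by the submitters. The 4 controls were labelled Pkcz f/+ (replicates 1 and 2) and Pkcz f/f (replicates 3 and 4), with no Cre named. The 4 Prkci knockout animals were labelled Ng2 Cre+ Prkci f/f (Prkci cKO) and the 3 Prkcz knockout animals Ng2-Cre+ Prkcz f/f (Prkcz cKO). No animal was treated. Ng2-Cre is a recombinase under regulatory sequence of Cspg4, the gene of the NG2 proteoglycan. It is active in oligodendrocyte precursors and pericytes. Deletion is directed at such cells and their progeny, whereas the libraries hold RNA of the whole tissue. Which cells recombined was not measured here. By the labels no control carried floxed Prkci or Cre, so effects of Cre, and of the mouse line for Prkci, cannot be told apart from those of the deletion. Prkcz cKO replicate 3 stood apart, with the lowest depth (14740000 reads against 20620000 to 28170000 in the other 10 libraries) and the highest level of striatum genes.

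PKC enzymes are serine and threonine kinases that carry signals from membrane lipids. Conventional isoforms need calcium and diacylglycerol, nPKC isoforms need diacylglycerol without calcium, and the atypical isoforms PRKCI and PRKCZ, the targets of the deletions, respond to neither and act with polarity proteins. The question asked of these genes is whether RNA of the other PKC isoforms was higher in cortex of mice in which an atypical gene was deleted.

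None of the 6 genes was called higher in either knockout, and 1 of them, Prkcq, fell in both, in Prkcz cKO only just past the threshold. In Prkci cKO against controls, 1 of 6 passed the test as lower and 0 as higher, where 1.51% of all 14330 genes passed as lower, 0.0977% as higher and 1.61% in either direction. In Prkcz cKO against controls, 1 of 6 passed as lower and 0 as higher, where the shares of all genes were 0.621%, 0.0279% and 0.649%. At an unadjusted p under 0.05 there were 2 of 6 (Prkch and Prkcq) and 1 of 6 (Prkcq), all lower, where 12.1% and 15% of all genes had such a p in either direction. For 6 genes the second count is near that share, and these shares are the background of every unadjusted count given for a list in the same comparisons. Each count of calls is a single gene, and both comparisons use the same controls. The calls are those of limma with Benjamini-Hochberg adjustment over all genes at a threshold of 0.05, on log2(normalised count + 0.5), a scale that understates changes of low genes. For the targeted genes, Prkci averaged 87.8 ± 2.52 in controls and 67.0 ± 1.47 in Prkci cKO (SD, n = 4 each), a log2 difference of -0.39 that passed (SE 0.045, limma adjusted p = 9.84e-04). Prkcz averaged 323 ± 20.2 in controls (SD, n = 4) and 278 ± 15.1 in Prkcz cKO (SD, n = 3). The groups did not overlap, and the log2 difference of -0.22 did not pass (SE 0.055, limma adjusted p = 0.0966).

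Levels can be compared between genes only per length, and were divided by the summed exon length of each gene in GENCODE M21 on GRCm38. On this scale the order was Prkcb, Prkce, Prkca, Prkcq, Prkcd and Prkch from highest to lowest in 11 of 11 libraries, and the same in 11 of 11 when the length of the longest coding transcript was used. In controls Prkcb stood at 275.7 ± 13.5 normalised counts per kb of exon and Prkce at 101 ± 3.24 (SD, n = 4 each). Prkca followed at 30.9 ± 2.77 per kb, while Prkcq was at 2.73 ± 0.171, Prkcd at 1.61 ± 0.1003 and Prkch at 1.01 ± 0.117 (SD, n = 4 each). The 3 high genes therefore stood apart from the 3 low ones: the ratio of Prkca to Prkcq per kb was 9.87 to 13.6 over the controls, 14.98 to 18.8 in Prkci cKO and 11.97 to 16.8 in Prkcz cKO. The smallest ratio between neighbours in this order was 1.05, of Prkcq to Prkcd in 1 Prkci cKO library. Prkcb made up 66.8% ± 1.72 of the summed per kb level of the 6 genes in controls, 66.1% ± 1.52 in Prkci cKO (SD, n = 4 each) and 66.0% ± 0.780 in Prkcz cKO (SD, n = 3). That sum was 400.0 to 425 in controls, 396 to 420.1 in Prkci cKO and 374 to 412 in Prkcz cKO, so the ranges of the 3 groups overlapped. These ratios and shares hold per kb of exon and change with the length used. In Control replicate 1, Prkcb, Prkca and Prkcq were at 291.9, 29.1 and 2.95 per kb of exon. Per kb of the longest coding transcript they were at 671.1, 31.1 and 5.83.

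**Figure D1:**
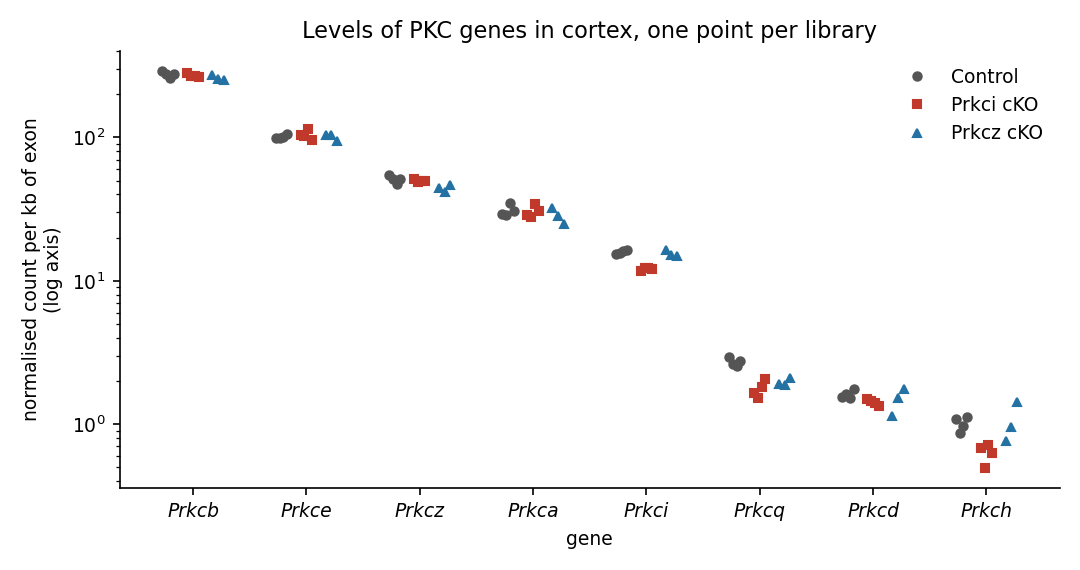
Normalised count per kb of exon (log axis) for the 6 cPKC and nPKC genes and for Prkcz and Prkci, with one point per library and groups side by side. Prkcb, Prkce and Prkca lie far above Prkcq, Prkcd and Prkch in all 11 libraries.

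Prkca (ENSMUSG00000050965.14; GRCm38 chromosome 11, 107933387 to 108343928, minus strand) encodes PKC alpha, a conventional isoform found in many tissues. Its normalised counts were 262, 260, 313 and 275 in Control replicates 1 to 4, then 260, 250, 308 and 278 in Prkci cKO, and 289, 253 and 225 in Prkcz cKO. The groups overlapped, and the spread within each covered the differences between them. The log2 difference was -0.02 in Prkci cKO (SE 0.084, 95% interval -0.20 to 0.16, limma adjusted p = 0.956) and -0.12 in Prkcz cKO (SE 0.091, interval -0.32 to 0.07, adjusted p = 0.552). The upper ends of these intervals, which hold for each gene alone, correspond to levels 11.8% and 5.30% above controls. Between the knockouts the log2 difference was 0.10 (interval -0.09 to 0.30). Exons of Apoh on the opposite strand overlap this gene, and no source used here says whether strand entered the counting.

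Prkcb (ENSMUSG00000052889.11; chromosome 7, 122288751 to 122634402, plus strand) encodes PKC beta, the conventional isoform abundant in forebrain neurons. It was at 2233, 2109, 1980 and 2117 in the controls, at 2151, 2032, 2054 and 2027 in Prkci cKO and at 2086, 1946 and 1911 in Prkcz cKO. The groups overlapped, although 2 of 3 Prkcz cKO libraries lay below every control. The log2 difference was -0.03 in Prkci cKO (SE 0.052, interval -0.14 to 0.08, limma adjusted p = 0.878) and -0.09 in Prkcz cKO (SE 0.056, interval -0.21 to 0.03, adjusted p = 0.465). A rise of more than 5.88% in Prkci cKO or 2.10% in Prkcz cKO lies outside these intervals. Between the knockouts the log2 difference was 0.06 (interval -0.06 to 0.18).

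Prkce (ENSMUSG00000045038.14; chromosome 17, 86167785 to 86657919, plus strand) encodes PKC epsilon, the most abundant nPKC isoform here per kb of exon. Its levels were 716, 716, 736 and 765 in the controls, 759, 743, 824 and 697 in Prkci cKO and 751, 749.8 and 684 in Prkcz cKO. Both the highest and the lowest value of the Prkci cKO and control libraries together were in Prkci cKO, and no group stood apart. The log2 difference was 0.04 in Prkci cKO (SE 0.055, interval -0.08 to 0.16, limma adjusted p = 0.8292) and -0.01 in Prkcz cKO (SE 0.059, interval -0.14 to 0.12, adjusted p = 0.949). Between the knockouts it was 0.05 (interval -0.08 to 0.18). An unclassified transcript on the same strand overlaps exons of this gene.

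Prkcd (ENSMUSG00000021948.17; chromosome 14, 30595354 to 30626210, minus strand) encodes PKC delta, an nPKC isoform known for its part in apoptosis and, in brain, as a marker of thalamic relay neurons. It was low in these libraries, at about 144 to 209 reads each. Its levels were 8.58, 9.06, 8.47 and 9.69 in the controls, 8.32, 8.04, 7.84 and 7.42 in Prkci cKO, and 6.36, 8.43 and 9.75 in Prkcz cKO. Every Prkci cKO library lay below every control, by a narrow margin, while Prkcz cKO held both the lowest and the highest of the 11 values. The log2 difference of -0.17 in Prkci cKO did not pass (SE 0.108, interval -0.40 to 0.06, limma adjusted p = 0.585), nor did that of -0.14 in Prkcz cKO (SE 0.117, interval -0.39 to 0.11, adjusted p = 0.591). Prkci cKO minus Prkcz cKO was -0.03 (interval -0.28 to 0.22). Of 12 thalamus genes limma called 0 in either comparison, with 3 in Prkci cKO and 1 in Prkcz cKO at an unadjusted p under 0.05, and their summed level was 788 to 967 in controls, 907 to 934 in Prkci cKO and 901 to 946 in Prkcz cKO.

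**Figure D2:**
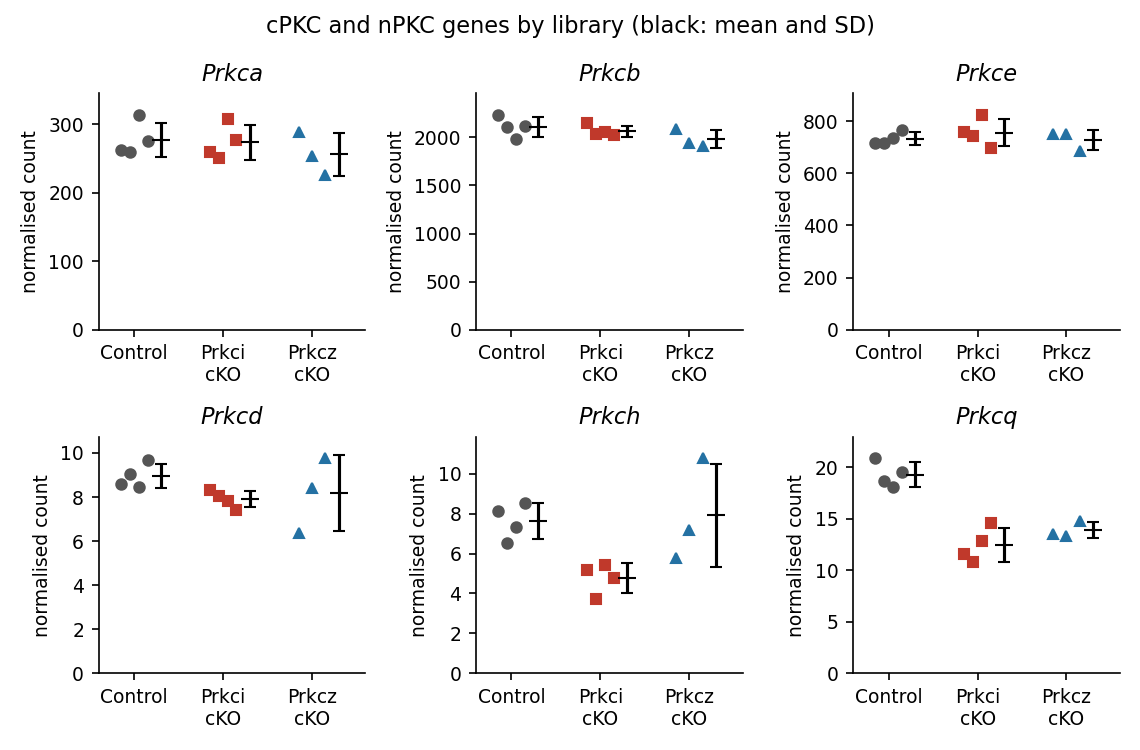
Normalised counts of the 6 genes by library in 4 control, 4 Prkci cKO and 3 Prkcz cKO animals, with the mean and SD in black, each axis starting at 0. Prkcq is lower in every knockout library than in any control, Prkch is lower in every Prkci cKO library, and Prkca, Prkcb and Prkce overlap between all groups.

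Prkcq (ENSMUSG00000026778.13; chromosome 2, 11172108 to 11301222, plus strand) encodes PKC theta, the nPKC isoform best known from T cell receptor signalling. It was at 20.87, 18.65, 18.09 and 19.56 in Control replicates 1 to 4 and at 11.60, 10.80, 12.87 and 14.59 in Prkci cKO replicates 1 to 4. In Prkcz cKO it was at 13.57, 13.37 and 14.83. All 7 knockout libraries lay below all 4 controls, with no value between 14.83 and 18.09. The counts behind these values were about 219 to 476 reads a library.

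Prkcq averaged 19.3 ± 1.21 in controls and 12.5 ± 1.65 in Prkci cKO (SD, n = 4 each). Its log2 level fell by 0.62 (SE 0.088, interval -0.81 to -0.43, limma adjusted p = 0.00226), and ranked 44 of 14330 genes by p. This call held in all 19 alternatives, with log2 differences from -0.69 to -0.55 and adjusted p from 9.94e-04 to 0.0317. In Prkcz cKO its mean was 13.9 ± 0.792 (SD, n = 3), a fall of 0.46 (SE 0.095, interval -0.66 to -0.25, limma adjusted p = 0.0481), at rank 89. That call stood just inside the threshold and was lost in 15 of 18 alternatives, among them each removal of 1 library, although the log2 difference stayed between -0.50 and -0.41 (adjusted p 0.0431 to 0.186). Without Prkcz cKO replicate 3 it was -0.50 (adjusted p = 0.0894). Prkci cKO minus Prkcz cKO was -0.16 (SE 0.095, interval -0.36 to 0.04, limma adjusted p = 0.412), with overlapping values. Between the control genotypes the log2 difference was -0.07 (SE 0.126).

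Oligodendrocyte genes were lower in the same libraries as Prkcq. Of 10 mature oligodendrocyte genes, 9 passed as lower in Prkci cKO and 2 in Prkcz cKO, with medians of -0.89 and -0.62. All 10 were below 0 and had an unadjusted p under 0.05 by limma in both. Of 8 newly formed oligodendrocyte genes, 6 and 4 passed as lower, with medians of -0.49 and -0.60. All 8 were below 0 in both, with 7 and 8 at an unadjusted p under 0.05. The medians of all genes were 0.00 and -0.01. The summed level of the mature list was 4957 to 7593 in controls, 2592 to 4234 in Prkci cKO and 3548 to 3934 in Prkcz cKO, and that of the newly formed list 498 to 568, 360 to 427 and 352 to 377. The control sums split by genotype. For the mature list they were 7593 and 6539 in Pkcz f/+ and 4957 and 5465 in Pkcz f/f. For the newly formed list they were 568 and 548 against 498 and 522, so the size of the fall depends on the controls used. No gene of either list was at 0. For each 1000 normalised counts of the newly formed list there were 36.2 ± 1.49 of Prkcq in controls, 31.9 ± 3.59 in Prkci cKO (SD, n = 4 each) and 38.0 ± 3.65 in Prkcz cKO (SD, n = 3). For each 1000 of the mature list there were 3.21 ± 0.473, 3.77 ± 0.822 and 3.67 ± 0.174, so on both ratios each knockout overlapped the controls. These ratios pool both control genotypes, over which the ratio to the mature list ran from 2.75 to 3.65. The part of these cells in the change of Prkcq was not tested, and in bulk tissue fewer cells of a type and less RNA per cell cannot be told apart. Oligodendrocyte precursor genes had medians of -0.11 and -0.16, with 0 of 8 past the threshold by limma in either comparison and 5 and 3 at an unadjusted p under 0.05.

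Within groups the relation of Prkcq to the mature list did not pass. After group means were removed, r was 0.53 and rho 0.46 over the 11 libraries (exact permutation within groups, p = 0.170 and 0.222, two-sided; adjusted p = 0.748 and 0.916 over 90 pairs of gene and list). Without the 2 libraries farthest from the median of the list, r was 0.003. Of 8 T cell genes 1, Lck, had a row in the table used here, at 0.69 to 1.96 over the 11 libraries, with overlapping groups. Vascular genes also moved with Prkcz cKO: of 9 endothelial genes 2 passed as lower there and 0 in Prkci cKO. All 9 were below 0 in Prkcz cKO and 0 in Prkci cKO, with 7 and 4 at an unadjusted p under 0.05. Their summed levels were 219 to 245 in controls, 247 to 272 in Prkci cKO and 178 to 189 in Prkcz cKO. Of 8 pericyte and smooth muscle genes 1 passed as lower in Prkcz cKO, as did 1 of 8 astrocyte genes. All 8 of each list were below 0 there, with 6 and 4 at an unadjusted p under 0.05. In Prkci cKO 5 and 6 were below 0, with 0 and 3 at such a p. The part of vascular cells and astrocytes in the values of the 6 genes was not tested. Of 10 neuronal genes 0 passed in either comparison and 3 had an unadjusted p under 0.05 by limma in each. Of the 10, 3 were below 0 in Prkci cKO and 2 in Prkcz cKO. Their sums were 10250 to 10510 in controls, 10330 to 11090 in Prkci cKO and 10710 to 11080 in Prkcz cKO. Every Prkcz cKO library thus lay above every control.

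**Figure D3:**
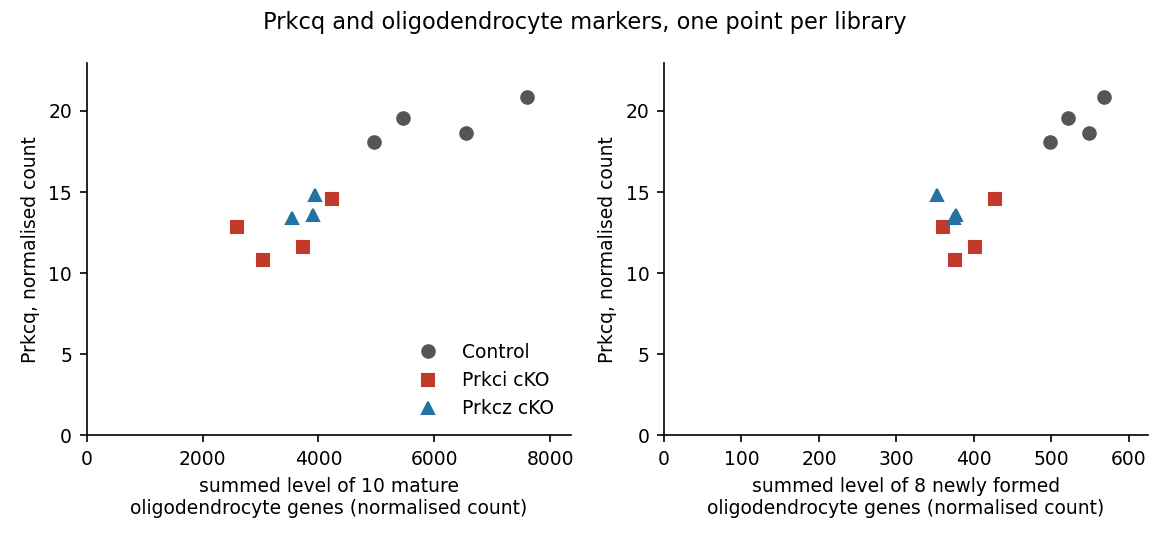
Prkcq (normalised count) against the summed level of 10 mature oligodendrocyte genes (left) and 8 newly formed oligodendrocyte genes (right), with one point per library. The 4 controls lie above and to the right of the 7 knockout libraries on both, with sums of at least 4957 and 498.

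Prkch (ENSMUSG00000021108.18; chromosome 12, 73584796 to 73778185, plus strand) encodes PKC eta, an nPKC isoform best known from epithelia. It was the lowest of the 6 genes, at about 84 to 186 reads a library. Its levels were 8.14, 6.53, 7.35 and 8.52 in the controls, 5.16, 3.73, 5.43 and 4.76 in Prkci cKO, and 5.79, 7.19 and 10.77 in Prkcz cKO. Every Prkci cKO library was below every library of both other groups, and Prkcz cKO spread on either side of the controls. The mean of 4.77 ± 0.746 in Prkci cKO against 7.63 ± 0.883 in controls (SD, n = 4 each) gave a log2 difference of -0.63 that did not pass (SE 0.162, interval -0.98 to -0.28, limma adjusted p = 0.0750). With array weights it passed (adjusted p = 0.0228), as it did with only these 2 groups fitted (0.0246), and over all 19 alternatives adjusted p was 0.0228 to 0.245. In Prkcz cKO the log2 difference was 0.01 (SE 0.175, interval -0.36 to 0.39, adjusted p = 0.981), and -0.22 without Prkcz cKO replicate 3. Between the knockouts it was -0.64 (SE 0.175, adjusted p = 0.148), -0.83 without Prkcz cKO replicate 1, where it passed (adjusted p = 0.0454), and -0.41 without Prkcz cKO replicate 3 (adjusted p = 0.538).

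Prkch followed markers of the striatum, the tissue under the cortex, from library to library. After group means were removed, its log2 level correlated with the mean of 12 striatum genes at r = 0.964 and rho = 0.973 over 11 libraries (exact permutation within groups, two-sided p = 2.9e-04 for each, the smallest that 3456 permutations can give; adjusted p = 0.0261 over 90 pairs of gene and list). It was the 1 pair of 90 that passed. Without the 2 libraries farthest from the median of the list r was 0.929, and with any 1 library left out it was 0.929 to 0.998. The summed level of the 12 genes was 845 to 1409 in controls, 436 to 793 in Prkci cKO and 860 to 1885 in Prkcz cKO, and none of them was at 0. The part of striatal tissue in the level of Prkch was not tested beyond these values. The library with the highest sum, Prkcz cKO replicate 3, also had the highest Prkch, and that with the lowest sum, Prkci cKO replicate 2, the lowest. None of the 12 genes passed in Prkci cKO by limma, while 12 of 12 were below 0 and had an unadjusted p under 0.05, with a median of -0.89. For each 1000 normalised counts of the list there were 6.51 ± 0.824 of Prkch in controls, 7.70 ± 0.700 in Prkci cKO (SD, n = 4 each) and 6.87 ± 1.23 in Prkcz cKO (SD, n = 3). On this ratio Prkci cKO was not below the controls, and the groups overlapped.

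**Figure D4:**
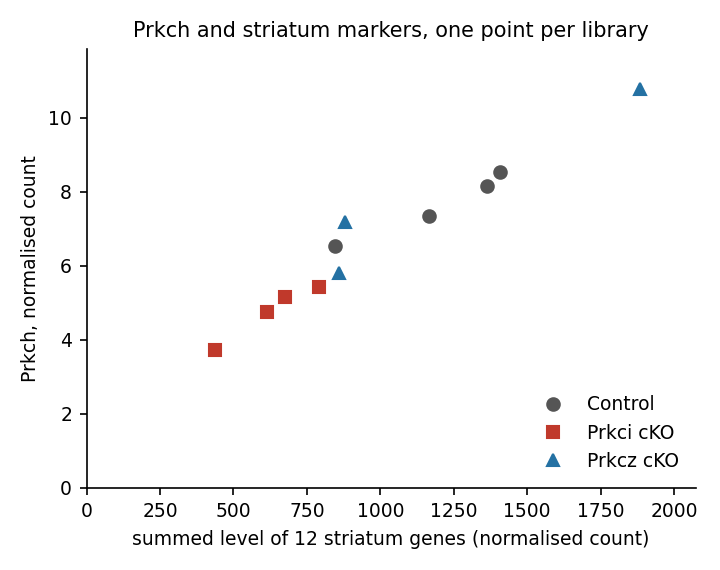
Prkch (normalised count) against the summed level of 12 striatum genes (normalised count), with one point per library. Points of all 3 groups lie along one rising band, from 3.73 at a sum of 436 in Prkci cKO to 10.77 at 1885 in Prkcz cKO.

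Set side by side, the 6 genes had a median log2 difference of -0.10 in Prkci cKO and -0.11 in Prkcz cKO, against 0.00 and -0.01 over all genes. Both comparisons share the 4 controls. Groups did not overlap for 3 of 6 genes in Prkci cKO, all lower (Prkcd, Prkch and Prkcq), where 5.32% of all genes were lower without overlap and 3.18% higher. The same held for 1 of 6 in Prkcz cKO (Prkcq), where the shares of all genes were 6.72% and 5.16%. In neither comparison was any of the 6 higher without overlap. Between the knockouts limma called 0 of 6 genes, where 0.3% of all genes passed in either direction, 0.0628% as lower and 0.237% as higher in Prkci cKO, and 1 of 6, Prkch, had an unadjusted p under 0.05, as did 16% of all genes. Prkch was also the 1 gene whose knockout groups did not overlap, lower in Prkci cKO, as were 6.43% of all genes, with 7.36% higher. The median of the 6 between the knockouts was 0.01, against -0.01 over all genes. For Prkca, Prkcb and Prkce, which carry most of the summed per kb level, every 95% interval against controls excluded a rise of more than 11.8%. The upper end was wider for low genes, at 30.9% above controls for Prkch in Prkcz cKO. These intervals hold for each gene alone and for RNA of the whole tissue. They set no limit on a rise within the cells in which deletion took place.

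**Figure D5:**
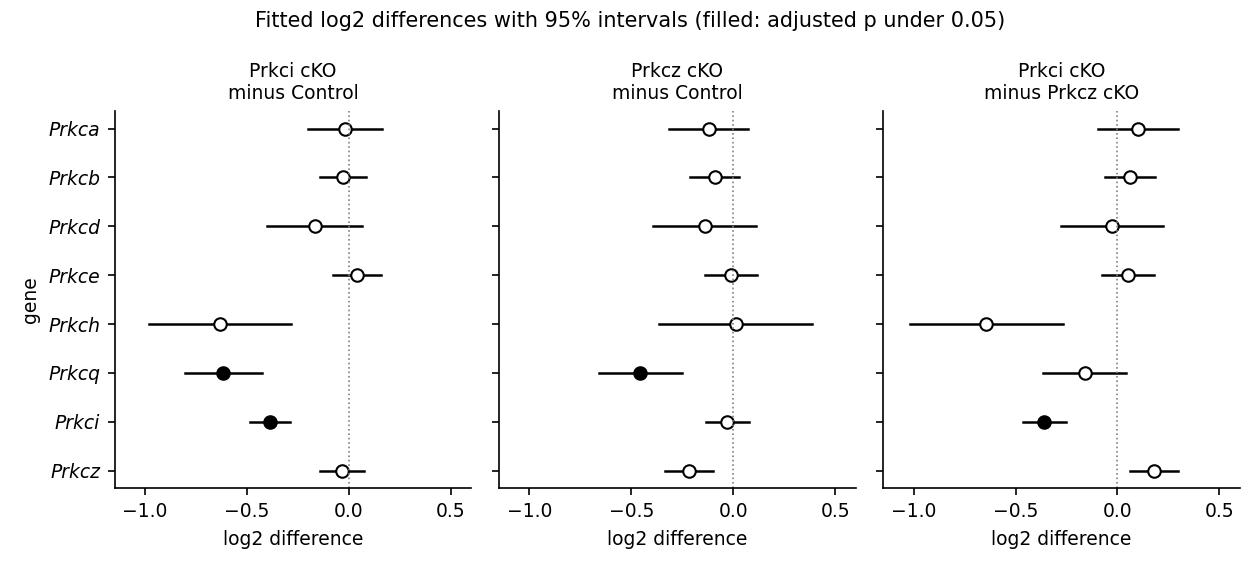
Fitted log2 differences with 95% intervals for the 6 genes and for Prkci and Prkcz, in Prkci cKO minus Control, Prkcz cKO minus Control and Prkci cKO minus Prkcz cKO. Filled points passed the threshold of 0.05 after adjustment: Prkcq and Prkci on the left, Prkcq in the middle and Prkci on the right.

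Signals reach cPKC and nPKC isoforms through receptors coupled to Gq, phospholipase C and diacylglycerol. Of 14 tested Gq-coupled receptor genes limma called 0 in any comparison, with 2 in Prkci cKO and 1 in Prkcz cKO at an unadjusted p under 0.05, beside 12.1% and 15% of all genes. The purinergic receptor P2ry1 was nearest, at 2.98 ± 0.441 in controls and 1.91 ± 0.208 in Prkci cKO (SD, n = 4 each; log2 difference -0.53, limma adjusted p = 0.0714), and the serotonin receptor Htr2a had a log2 difference of -0.31 (adjusted p = 0.261). In Prkcz cKO the endothelin receptors Ednrb (-0.19, adjusted p = 0.203) and Ednra (-0.25, 0.345) had the smallest p. Of 16 genes of Gq proteins and phospholipases C limma called 0, with 2 in each knockout at an unadjusted p under 0.05. Plch1, a phospholipase C of the eta type, averaged 11.4 ± 0.476 in controls and 15.3 ± 1.94 in Prkci cKO (SD, n = 4 each; log2 difference 0.40, adjusted p = 0.0936), with every Prkci cKO library above every control. In Prkcz cKO its log2 difference was 0.27 (adjusted p = 0.296), again without overlap, and Plcb3, a target of Gq, was at -0.28 (adjusted p = 0.193). Plch2, of the same type as Plch1, had a log2 difference of 0.23 between the knockouts (adjusted p = 0.138).

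Diacylglycerol kinases, which remove the lipid, and diacylglycerol lipases had 0 of 11 tested genes past the threshold by limma and 1 in each knockout at an unadjusted p under 0.05. Dgkb had a log2 difference of -0.35 in Prkci cKO (limma adjusted p = 0.264) and Dgkg of 0.20 in Prkcz cKO (adjusted p = 0.312). Of 12 other proteins that bind diacylglycerol, the protein kinase D, RasGRP, chimaerin and Unc13 families, limma called 0, with 3 in Prkci cKO and 4 in Prkcz cKO at an unadjusted p under 0.05, beside 12.1% and 15% of all genes. Rasgrp3 averaged 17.1 ± 0.948 in controls (SD, n = 4) and 13.8 ± 0.722 in Prkcz cKO (SD, n = 3), a log2 difference of -0.30 close to the threshold (adjusted p = 0.0574). Rasgrp2, a Ras family exchange factor, averaged 19.7 ± 3.74 in controls and 11.5 ± 2.05 in Prkci cKO (SD, n = 4 each; log2 difference -0.74, adjusted p = 0.135). Unc13a, which primes synaptic vesicles, had a log2 difference of 0.24 between the knockouts (adjusted p = 0.158).

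Among 14 genes of PKC maturation and anchoring limma called 0 in any comparison. At an unadjusted p under 0.05 there were 1 in Prkci cKO, 2 in Prkcz cKO and 6 between the knockouts. The shares of all genes were 12.1%, 15% and 16%. Akap12, an anchoring protein, had log2 differences of 0.17 in Prkci cKO against controls (limma adjusted p = 0.349) and 0.24 between the knockouts (adjusted p = 0.200). Cdc37, a kinase chaperone, had one of 0.14 in Prkcz cKO (adjusted p = 0.196), and Phlpp1, a phosphatase that dephosphorylates PKC, one of -0.15 (adjusted p = 0.234). Of 14 PKC substrate genes, 3 in Prkci cKO and 4 in Prkcz cKO had an unadjusted p under 0.05 by limma. The 1 that passed, as lower in Prkci cKO, was Ppp1r14a, an inhibitor of myosin phosphatase that PKC activates. It averaged 6.80 ± 1.92 in controls and 3.41 ± 0.322 in Prkci cKO (SD, n = 4 each), and fell by 0.87 (SE 0.157, limma adjusted p = 0.0117). Against the 2 Pkcz f/f controls alone it did not pass (log2 difference -0.54, adjusted p = 0.0793). In Prkcz cKO it was 4.26 ± 0.252 (SD, n = 3), with a log2 difference of -0.58 (adjusted p = 0.144). Mbp, a myelin protein that PKC can phosphorylate and that also belongs to the mature oligodendrocyte list, had one of -0.83 in Prkcz cKO (adjusted p = 0.114).

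The list medians can be read beside those of all genes, 0.00, -0.01 and -0.01. In Prkci cKO they ran from -0.07 for the other diacylglycerol receptors to 0.04 for Gq proteins and phospholipases C. In Prkcz cKO they ran from -0.12 for the other diacylglycerol receptors to -0.02 for diacylglycerol kinases and lipases. Between the knockouts they ran from -0.0034 for maturation and anchoring to 0.16 for the other diacylglycerol receptors. In that comparison an unadjusted p under 0.05 was found for 5 of 12 other diacylglycerol receptors and 6 of 14 maturation and anchoring genes. Such a p was found for 4 of 16 Gq and phospholipase C genes and 3 of 11 diacylglycerol kinases and lipases. The counts were 1 of 14 Gq-coupled receptors, 0 of 14 substrates and 3 of 5 related kinases, beside 16% of all genes. These 3 include Prkci and Prkcz, the deleted genes, so the last count is no measure of related kinases. Over all 7 lists, with the related kinases included, limma called 2 genes in Prkci cKO (Prkci and Ppp1r14a) and 0 in Prkcz cKO, and 1 between the knockouts (Prkci).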

How the data were processed

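One table of normalised counts in 11 mouse cortex libraries was analysed. Per the submitters' processing notes, FastQC, Trim Galore, STAR, RSEM and edgeR were used on GRCm38. Their versions, the annotation, strand use and scaling were not given in the sources used here. What the authors deposited is a normalised signal per gene with 2 decimals, in columns that sum to 1021767 to 1082562. Steps between low values, on which 85.9% to 89.2% of values under 0.5 lay within 0.005, gave an effective depth of 14740000 reads in Prkcz cKO replicate 3 and 20620000 to 28170000 in the others. Too few values came out as whole reads for a count test, and reads given for a gene are its value times this depth. Replicates correlated at r = 0.993 to 0.996 and none repeated another.

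Genes that reached 1 in 3 or more libraries (14330 of 16228) were taken as log2(value + 0.5) and fitted over all 11 libraries with limma 3.58.1 in R 4.3.3 (variance trend, 8 residual degrees of freedom, a term per genotype), two-sided, with Benjamini-Hochberg adjustment over all genes. Marker lists were related to the 6 genes on deviations from group means, by exact permutation within groups. The genes named are the 6, the targeted genes, from each pathway list up to 4 called genes with the smallest p or, with none, up to 2, and the 3 genes with the highest Pearson r to each of the 6. Names of the form of gene models and dates were left out of that ranking, and 2 genes this rule names are not reported here. Members and lists were chosen with earlier results of these data known. The alternatives are those of the closing section; figures were drawn with matplotlib 3.10.9.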

Additional observations from a re-analysis of the deposited data

How the results depend on the processing

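Prkcq was lower against controls in all 19 alternatives in Prkci cKO and all 18 in Prkcz cKO. The count of the 6 genes called in Prkci cKO was 1, and 2 (with Prkch) with array weights or with only the groups compared. In Prkcz cKO it was 1, and 0 with no filter, with median of ratios scaling, with quantile normalization, without a variance trend, with array weights, with only the groups compared, against the Pkcz f/f controls only, with the replicate block and without any 1 library (range 0 to 0). Between the knockouts it was 0, with a range of 0 to 1 on leaving out 1 library (Prkch without Prkcz cKO replicate 1).

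Over all genes, 230, 93 and 43 passed in Prkci cKO, Prkcz cKO and between the knockouts. These counts were 346 in the first and 112 in the last with array weights, 132 and 59 in the first 2 against the Pkcz f/f controls, 30 without a variance trend and 29 with only the groups compared in Prkcz cKO, and 95 to 211, 13 to 77 and 10 to 152 on leaving out 1 library. The libraries whose removal moved a count by over 1.5 times were Prkci cKO replicates 1 (148) and 2 (95) in the first, Control replicates 1 (27) and 2 (50) and Prkcz cKO replicates 2 and 3 (13 each) in the second, and Prkci cKO replicates 1 (10), 2 (14) and 4 (19) and Prkcz cKO replicates 1 (152) and 3 (16) in the last. With the replicate block the last was 73. Same-numbered libraries had correlations of -0.186 to 0.196 after group means were removed, not all above 0.1, so the numbers were not taken as pairs. Not every library correlated best with its own number: 12 of 20 matches to another group did, above the 5.5 that equally likely candidates would give, a hint of pairing from the data and not the design.

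For the pathway lists, alternatives added after seeing the data, Prkci cKO gave 2 genes, and 4 with array weights or only the groups compared, 1 against the f/f controls (Ppp1r14a no longer passed) and 5 with the replicate block. Prkcz cKO gave 0, and 1 with array weights or the block. The knockouts gave 1, 2 with array weights and 1 to 2 on leaving out 1 library. The cause of these changes was not tested.

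Differences near 0 changed sign without being called. Prkcb in Prkci cKO was 0.039 with quantile normalization and 0.013 against the f/f controls. With array weights Prkce was 0.016 in Prkcz cKO and -0.0018 between the knockouts, and Prkch in Prkcz cKO was -0.074, and -0.043 against the f/f controls. On leaving out 1 library, Prkca in Prkci cKO ran from -0.078 to 0.040, Prkcd in Prkcz cKO from -0.27 to 0.020 and between the knockouts from -0.19 to 0.10, Prkce in Prkci cKO from -0.00082 to 0.080 and in Prkcz cKO from -0.034 to 0.034, and Prkch in Prkcz cKO from -0.22 to 0.20. Depth limits Prkch and Prkcd most, at 84 to 209 reads a library.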

Other observations

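The 3 genes whose levels were most like each of the 6, by Pearson r of log2 levels after group means were removed, were ranked over 11 libraries and 12549 other genes. They were chosen as the highest and carry no test. For Prkch they were the striatal dopamine receptor gene Drd1a (r = 0.976, rho = 0.973), the serotonin receptor gene Htr1d (0.968, 0.964) and Ppp1r1b, which encodes DARPP-32 of striatal neurons (0.966, 0.945). Drd1a and Ppp1r1b belong to the striatum list, so they add no separate evidence to its correlation with Prkch. For Prkcq they were Tysnd1 (r = 0.938, rho = 0.918), Lpo (0.915, 0.936) and Trp53 (0.890, 0.827). Lrrk2 (r = 0.943, rho = 0.927), Zfhx4 (0.937, 0.927) and Pcdhb22 (0.933, 0.864) were nearest to Prkca, and Bcor (0.920, 0.891), Pip4k2a (0.911, 0.909) and Ppard (0.907, 0.927) to Prkcb. Prkcd was nearest to Mpg (r = 0.947, rho = 0.936), Mdp1 (0.933, 0.800) and Thg1l (0.926, 0.718), and Prkce to Pcdhgb1 (0.955, 0.936), Prickle2 (0.924, 0.927) and Tspan6 (0.921, 0.873).

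Among the 6 genes themselves, the pair with the highest r on the same scale was Prkcd and Prkch (r = 0.707, rho = 0.518), and that with the lowest was Prkca and Prkcd (r = -0.692, rho = -0.673). These are descriptions over 11 libraries of whole tissue that share depth and tissue make-up.

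Of the 90 pairs of gene and marker list, 2 others had an exact permutation p under 0.01 for r, and neither passed after adjustment. Prkca rose with 7 genes of upper cortical layers (r = 0.839, rho = 0.873, p = 0.00637 and 0.00984, adjusted p = 0.200 and 0.221; r = 0.809 without the 2 libraries farthest from the median). Prkce went against the 10 mature oligodendrocyte genes (r = -0.807, rho = -0.818, p = 0.00666 and 0.00781, adjusted p = 0.200 and 0.221; r = -0.766 without the 2 farthest).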
